A study of Sus scrofa with 36 samples.

Results

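Hippocampi of 36 piglets were ranked by an interferon score, and the 12 interferon-high arrays were set against the 12 interferon-low arrays. The score was the mean log2 value of ISG15, IFIT1, RSAD2 and USP18, each read from its probe set of highest mean over the 36 arrays, and the members of each class were chosen by these measured values alone. The 12 arrays between the ends, called middle here, stayed out of the comparison. All piglets were male Landrace by Large White crosses, received at day 3 of age and sampled at day 38. They had been fed milk replacer with its basal lactoferrin (control), or replacer with lactoferrin at 0.6 g/L or at 1.2 g/L, with 12 piglets per feeding group. Lactoferrin is an iron-binding glycoprotein of milk, and the study asked how it affects early brain development. RNA was measured on Affymetrix porcine arrays, 1 array per hippocampus, as log2 values. The labels also gave each sample a set code (S1 to S5) without saying what it stands for. The classes were sorted on the arrays' own values, so the tests below measure how other transcripts went with the 4 score genes from array to array, and no treatment separates the classes.

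Type I and type II interferons are secreted proteins that bind receptors on neighbouring cells and activate STAT and IRF transcription factors. These switch on interferon-stimulated genes, whose products block viral replication, tag or cut foreign RNA, and raise the display of antigens. In brain, microglia, astrocytes, neurons and endothelial cells can all respond. ISG15 is a ubiquitin-like modifier, USP18 removes it from proteins and damps receptor signalling, IFIT1 binds viral RNA, and RSAD2 (viperin) makes a nucleotide that ends viral RNA chains.

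Array medians lay between 6.6 and 6.7, and no pair of arrays correlated above 0.996. Brain tissue was borne out by neuronal SNAP25 (mean log2 value 12.92), astrocytic GFAP (12.72) and myelin MBP (14.55). SNAP25, GFAP and MBP do not tell hippocampus from other brain regions. NEUROD1, a granule-neuron factor, was at 6.63, and choroid plexus TTR at 6.41. Of 12 markers of excitatory neurons only 1 was on the array under its symbol, and it was dim. The array of lowest correlation with the others (mean 0.980) was 1.2 g/L replicate 2, an interferon-high array. The difference between the 3′ and 5′ probe sets of actin, a measure of RNA integrity, was 2.75 ± 0.34 (SD, n = 12) in interferon-high and 3.24 ± 0.51 (SD, n = 12) in interferon-low arrays (adjusted p = 0.0619, permutation test). Its part in the results was not tested. P-values measure the spread between these samples, and precision is limited by how many arrays there were. In bulk tissue, more cells of a type and more RNA per cell cannot be told apart.

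The score ran from 6.05 to 10.1. It lay between 7.175 and 10.1 in the interferon-high class (median 8.56) and between 6.05 and 6.5 in the interferon-low class (median 6.28). The interferon-low and middle arrays were close together, with middle scores of 6.525 to 7.05, whereas the interferon-high arrays were spread widely. The last array inside the upper class scored 7.175 (1.2 g/L replicate 6) and the next outside it 7.05 (0.6 g/L replicate 9). At the lower edge 6.5 was inside and 6.525 outside.

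The score genes are given as a description, because they chose the arrays. RSAD2 lay between 5.7 and 9.6 (median 7.8) in interferon-high and between 4.3 and 5.0 (median 4.7) in interferon-low arrays, a ratio of class means of 8.09. ISG15 lay between 8.5 and 11.3 against 7.4 and 8.2, a ratio of 4.68. IFIT1 lay between 7.1 and 9.4 against 6.0 and 6.9 (4.05-fold), and USP18 between 7.4 and 10.1 against 6.1 and 7.0 (3.40-fold). None of the 4 overlapped between the classes. Over the 36 arrays their pairwise correlations were 0.904 to 0.967. A further IFIT1 probe set differed by 2.29 and another by 0.18 on the log2 scale, so IFIT1 probe sets did not move by the same amount.

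The classes were unevenly spread over the set codes. S4 and S5 together held 9 of the 12 interferon-high arrays and no interferon-low array, and S1 to S3 held 3 interferon-high and all 12 interferon-low arrays (Fisher's exact test of class by set code over the 24 arrays, p = 0.000132). The mean score was 8.11 in S4 and 8.24 in S5, against 6.99 in S1, 6.55 in S2 and 6.43 in S3. Set code held 48.1% of the variance of the score (p = 0.0009, permutation test). Arrays of S4 still ran from 6.55 to 10.1, and those of S5 from 6.55 to 9.575, so set code did not fix the score.

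**Figure D1:**
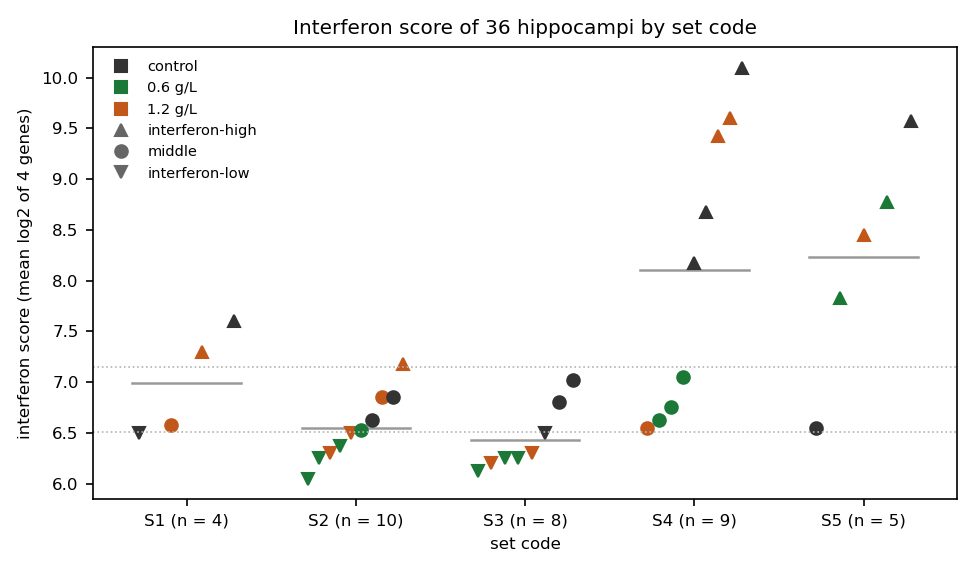
Interferon score (mean log2 value of 4 genes, vertical axis) of the 36 arrays by set code (horizontal axis). Colours give the feeding group, symbols the class, grey bars the mean of a set code and dotted lines the class limits; 9 of 12 interferon-high arrays stand in S4 and S5, and all 12 interferon-low arrays in S1 to S3.

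By feeding group, 5 of 12 control arrays, 2 of 12 arrays at 0.6 g/L and 5 of 12 at 1.2 g/L were interferon-high, and 2, 6 and 4 were interferon-low (Fisher's exact test, p = 0.205). The mean score was 7.58 ± 1.27 in controls, 6.74 ± 0.81 at 0.6 g/L and 7.27 ± 1.22 at 1.2 g/L (SD, n = 12 each). With labels permuted within set codes, 0.6 g/L minus control was -0.84 (p = 0.0182, permutation test, adjusted p = 0.0547 over 3 contrasts), 1.2 g/L minus control -0.31 (adjusted p = 0.414, permutation test) and 1.2 g/L minus 0.6 g/L 0.53 (adjusted p = 0.2, permutation test). No contrast passed. The adjusted p of 0.6 g/L minus control lay between 0.00834 and 0.167 when single arrays were left out. It passed in 6 of 36 such cases, those without control replicates 2, 3 or 12, 0.6 g/L replicate 11 or 1.2 g/L replicates 9 or 10. Within S4 the 3 controls scored 8.175 to 10.1 and the 3 arrays at 0.6 g/L 6.625 to 7.05, with no overlap. In S5 the controls (6.55 and 9.575) enclosed both arrays at 0.6 g/L (7.825 and 8.775).

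Across 18000 other probe sets, 192 passed an adjusted p of 0.05 between the classes (limma, Benjamini-Hochberg), 160 higher and 32 lower in interferon-high arrays. This is a background of 0.889% higher and 0.178% lower. Taking 1 probe set per gene, 78 of 6030 named genes were higher (1.29%) and 8 lower (0.133%). Of the genes that were higher, 21 differed by more than 1 log2 unit, and none of the lower genes did. The median difference of all genes was -0.0042. In the middle arrays the mean lay between those of the ends for 149 of the 160 higher and 29 of the 32 lower probe sets. For all 18000 tested probe sets this count was 7206. It is a description only, since the called probe sets were chosen for the gap between the ends.

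Because class and set code overlapped, the groups with calls are also given with a further fit, added after the data had been seen. It regressed each probe set on the score over all 36 arrays with set code in the model, and is quoted for the 2.26 log2 units that separate the mean scores of the classes. In that fit 103 probe sets were higher (0.572%) and 9 lower with the score (0.05%). With 1 probe set per gene, 58 genes were higher with the score (0.962%) and 3 lower (0.0498%). Of the 78 higher genes 49 passed there too, and of the 8 lower genes 2 did. With set code as a block in the comparison of the 24 classed arrays, 0 probe sets passed (limma, 1542 at an unadjusted p under 0.05), and 182 of the 192 kept their sign. No set code had 2 arrays of each class, so the classes could not be compared within a set code, and set code and class cannot be fully told apart.

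Antiviral effectors were mostly higher. Of 19 listed genes on the array 13 were bright enough to test, and 10 of the 13 were higher in interferon-high arrays and none lower, with a median difference of 1.07. All 10 also passed with set code in the model. IFI44L, an interferon-induced protein of the cytoplasm, lay between 8.7 and 10.5 (median 9.9) in interferon-high arrays and between 7.9 and 8.6 (median 8.0) in interferon-low arrays. The classes did not overlap, and the difference was 1.63 (SE 0.19, adjusted p = 1.68e-05). IFIT3, which joins IFIT1 on viral RNA, lay between 7.6 and 9.9 against 6.8 and 7.4. Here too every interferon-high array exceeded every interferon-low array, by 1.47 on average (SE 0.22, adjusted p = 0.000252).

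MX1, a GTPase that traps viral nucleocapsids, lay between 9.5 and 11.6 (median 10.45) against 9.4 and 9.7 (median 9.45). In 11 of 12 interferon-high arrays it exceeded the highest interferon-low value, and the exception, at 9.5, was 1.2 g/L replicate 2. The MX1 difference was 1.07 (SE 0.17, adjusted p = 0.000362). XAF1, a pro-apoptotic interferon target, differed by 1.18 (SE 0.18, adjusted p = 0.000285), PARP12, an ADP-ribosyltransferase, by 1.1 (SE 0.17), and EIF2AK2 (PKR), the kinase that halts translation on viral RNA, by 1.08 (SE 0.16). EIF2AK2 lay between 8.7 and 10.5 against 8.1 and 8.7, so the classes touched. ISG12(A), a small mitochondrial interferon-induced protein, differed by 1.83 (SE 0.27, adjusted p = 0.000225). Its lowest interferon-high value, 8.3 in 1.2 g/L replicate 2, lay inside the interferon-low range of 8.1 to 9.1.

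OAS1, the synthetase whose product activates RNase L, did not pass. It lay between 5.7 and 9.0 in interferon-high and between 4.5 and 7.0 in interferon-low arrays, a difference of 1.32 (SE 0.36, adjusted p = 0.0747). The 4 largest OAS1 values stood in set codes S5 and S4, with 9.0, 8.6 and 8.6 in S5. Control replicate 8, which had the highest score of all arrays, stood at 6.0. The correlation of OAS1 with the score was 0.475 over 36 arrays and -0.061 within the 12 interferon-high arrays.

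**Figure D2:**
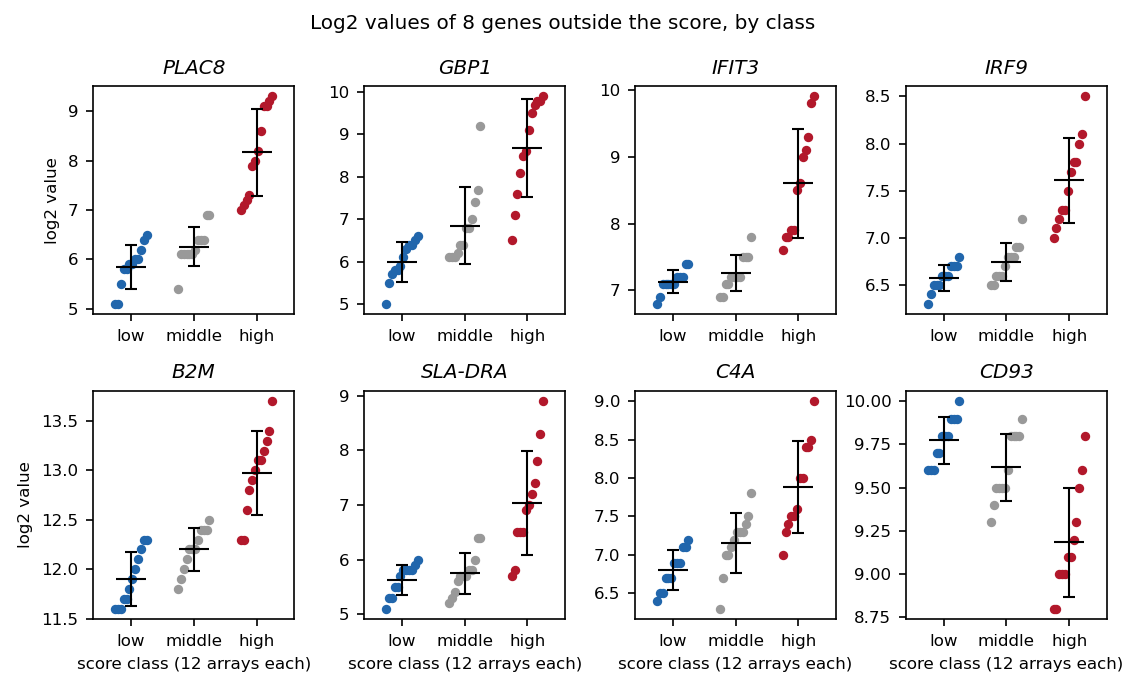
Log2 values of 8 genes outside the score (vertical axes) in the interferon-low, middle and interferon-high arrays (horizontal axes, 12 arrays each). Points are arrays, long ticks class means and bars SD; PLAC8, IFIT3 and IRF9 do not overlap between low and high, whereas CD93 is lower in interferon-high arrays.

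Among genes that sense RNA or DNA 3 of 7 on the array were bright enough to test. Of the 4 dim ones, ZBP1 had class means of 4.95 in interferon-high and 3.975 in interferon-low arrays, and DDX60 4.75 and 3.97. The other dim ones hardly differed, TLR8 at 3.95 and 3.96 and TLR9 at 4.34 and 4.36. DDX58 (RIG-I), which detects viral RNA, lay between 6.1 and 7.9 (median 6.9) against 5.9 and 6.4 (median 6.1), a difference of 0.87 (SE 0.15, adjusted p = 0.00101), and 10 of 12 interferon-high arrays exceeded all interferon-low arrays. The adaptors did not pass. MAVS, which relays the RIG-I signal, differed by 0.02 (adjusted p = 0.935), and MYD88, the adaptor of Toll-like receptors, by 0.03 (adjusted p = 0.769).

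Few transcripts of interferons and of related cytokines could be tested. Of 7 such ligands on the array 5 were too dim, among them IFNB1 and IFNG. IFNB1 had a mean of 3.54 in interferon-high and 3.59 in interferon-low arrays, and IFNG 3.78 and 3.71. These dim transcripts stayed out of the main comparison, and values so near the floor could hide a difference. IFNA1 was bright enough to test and differed by 0.05 (95% interval -0.05 to 0.15, adjusted p = 0.69). The receptor chains of type I interferon were well above the floor and showed no call. IFNAR1 differed by 0.01 (95% interval -0.12 to 0.14, adjusted p = 0.961) and IFNAR2 by 0.08 (-0.03 to 0.20, adjusted p = 0.537).

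Of 20 genes of interferon signalling and transcription 6 were higher and none lower, with a median difference of 0.17, and 6 passed with set code in the model. IRF9, the DNA-binding part of the ISGF3 complex, lay between 7.0 and 8.5 (median 7.6) against 6.3 and 6.8 (median 6.6). It was the transcription factor whose classes did not overlap, with a difference of 1.03 (SE 0.13, adjusted p = 2.07e-05). IRF1, an activator of antigen-presentation genes, differed by 1.08 (SE 0.16, adjusted p = 0.000225), and IRF7, which amplifies interferon production, by 0.48 (SE 0.11, adjusted p = 0.0214). STAT2, the partner of IRF9, differed by 0.29 and did not pass (SE 0.11, adjusted p = 0.249), although it passed with set code in the model (0.41, adjusted p = 0.00716). SOCS1, a feedback inhibitor of JAK kinases, was higher by 0.27 (SE 0.05, adjusted p = 0.00611) and STAT3, the factor of interleukin-6 signalling, by 0.22 (adjusted p = 0.0308). Neither passed with set code in the model, at 0.15 (adjusted p = 0.779) and 0.17 (adjusted p = 0.31). The call of STAT3 held in 13 of the 24 fits that each left out 1 array.

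The list of guanylate-binding and interferon-gamma type genes had the largest median difference of the lists. Of its 6 tested members 5 were higher, with a median of 1.27, and the same number passed with set code in the model. Its members were chosen with earlier results of these data known, and the score genes, which are antiviral, were left out of all lists' tests. The order of the lists by size is therefore a description only. GBP1, a GTPase that attacks vacuoles of pathogens, lay between 6.5 and 9.9 (median 8.85) in interferon-high and between 5.0 and 6.6 (median 6.0) in interferon-low arrays. It had the largest difference of all named genes outside the score, 2.68 (SE 0.33, adjusted p = 2.07e-05) or 6.42-fold, and its 3 probe sets all passed. PLAC8, a small cysteine-rich protein of immune cells, lay between 7.0 and 9.3 against 5.1 and 6.5. Every interferon-high array exceeded every interferon-low one, by 2.32 on average (SE 0.26, adjusted p = 1.68e-05). UBD (FAT10), a ubiquitin-like tag that sends proteins to the proteasome, lay between 4.8 and 9.2 against 4.6 and 5.9, a difference of 1.70 (SE 0.35, adjusted p = 0.0092), with 9 of 12 interferon-high arrays above all interferon-low arrays. GBP2, a relative of GBP1, differed by 0.84 (SE 0.15) and CASP1, the protease that matures interleukin-1 beta, by 0.71 (SE 0.12).

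Class I antigen presentation, by which cells display internal peptides, was higher for 5 of 11 tested genes and lower for none, with a median of 0.33. Of these 11 genes 4 passed with set code in the model. B2M, the light chain of class I molecules, lay between 12.3 and 13.7 (median 13.05) against 11.6 and 12.3 (median 11.85), a difference of 1.08 (SE 0.14, adjusted p = 2.6e-05). The annotation gave B2M to 9 tested probe sets, of which 2 were higher by the test and 3 had the opposite sign. SLA-3, a class I heavy chain, differed by 1.1 (SE 0.16, adjusted p = 0.000231), TAP1, the peptide transporter, by 0.90 (SE 0.16, adjusted p = 0.00133), and TAPBP, which loads peptides, by 0.33 (SE 0.07). Transcripts of the SLA family are alike enough to cross-hybridise, so the share of each is uncertain.

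All 4 tested immunoproteasome genes were higher, by 0.45 to 0.64, and 3 of the 4 passed with set code in the model. The PSMB8 subunit, which replaces its constitutive counterpart when peptides are cut for class I display, lay between 6.0 and 7.0 against 5.3 and 6.0 and differed by 0.64 (SE 0.10, adjusted p = 0.000282). It was the member that did not pass with set code in the model (0.38, adjusted p = 0.106). PSME2, a subunit of the proteasome activator, also differed by 0.64 (SE 0.10, adjusted p = 0.000234). Of 30 genes of the constitutive proteasome none passed in either direction, and their median was 0.0083.

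Class II antigen presentation, the display of engulfed material by microglia and macrophages, was higher for 6 of 9 tested genes, with a median of 0.67, and 5 passed with set code in the model. With the mean of the microglia list as a covariate in the comparison of the classes, 0 of the 9 passed (limma), and their median was 0.43. CTSS is in both lists, so that covariate held part of its own difference. SLA-DRA, the alpha chain of the DR molecule, lay between 5.7 and 8.9 (median 6.95) against 5.1 and 6.0 (median 5.75). In 10 of 12 interferon-high arrays it exceeded all interferon-low arrays, and the difference was 1.42 (SE 0.26, adjusted p = 0.00259), or 0.94 with that covariate (adjusted p = 0.208). SLA-DQA1 differed by 0.73 (SE 0.12) and SLA-DQB1 by 0.67 (SE 0.11). CTSS, the protease that degrades the invariant chain in endosomes, differed by 0.94 (SE 0.15, adjusted p = 0.000627). It is also a microglial marker, and 8 of 12 interferon-high arrays exceeded all interferon-low arrays.

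Of 13 tested cytokines and chemokines 4 were higher and none lower, with a median of 0.12, and 2 passed with set code in the model. TNFSF10 (TRAIL), a death ligand induced by interferons, lay between 5.8 and 8.1 (median 7.5) against 5.3 and 6.1 (median 5.65), a difference of 1.62 (SE 0.20, adjusted p = 2.07e-05). The monocyte attractant CCL2 differed by 0.97 (SE 0.18, adjusted p = 0.0032) and its relative CCL8 by 0.68 (SE 0.12, adjusted p = 0.00139). CCL2 lost its call with set code in the model (0.70, adjusted p = 0.12), while CCL8 kept it (0.61, adjusted p = 0.00934). Of 4 tested genes of the NF-kB pathway none passed, and their differences were 0.01 to 0.13.

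Complement genes were higher for 5 of 12 tested, with a median of 0.36, but only C1R passed with set code in the model. C1R, a protease of the C1 complex, lay between 7.1 and 8.5 against 6.6 and 7.2 and differed by 0.79 (SE 0.12, adjusted p = 0.000282). C4A, which is cleaved to tag surfaces, lay between 7.0 and 9.0 (median 7.8) against 6.4 and 7.2 (median 6.8). It differed by 1.08 (SE 0.17, adjusted p = 0.00048), but by 0.77 with set code in the model (adjusted p = 0.163). CFB, the protease of the alternative pathway, differed by 0.41 (SE 0.08, adjusted p = 0.00443), and SERPING1, the C1 inhibitor, by 0.42 (SE 0.08, adjusted p = 0.00682). With set code in the model CFB was at 0.19 (adjusted p = 0.913) and SERPING1 at 0.29 (adjusted p = 0.362).

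**Figure D3:**
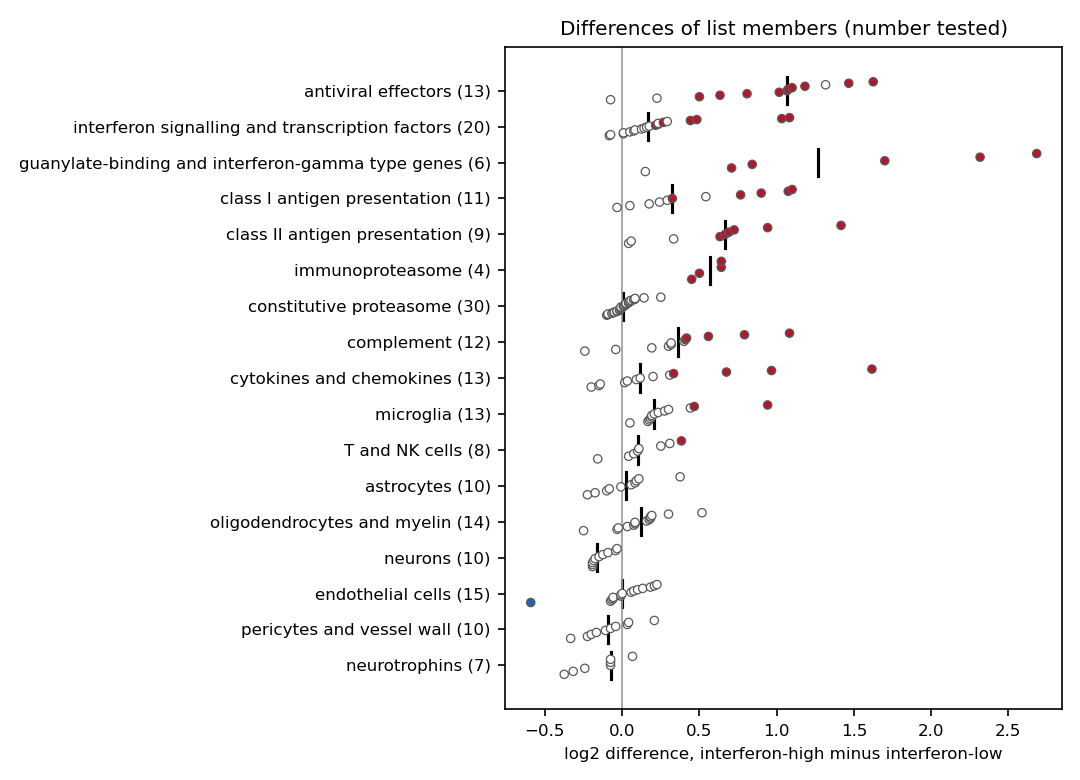
Log2 difference, interferon-high minus interferon-low (horizontal axis), of each tested gene in 17 lists (rows, number tested in brackets). Filled points passed an adjusted p of 0.05, black bars are list medians; 10 of 13 antiviral effectors and 0 of 30 constitutive proteasome genes passed.

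Inside the interferon-high class the gene groups followed the score to different degrees. The correlations here are descriptions over 12 arrays that share set codes. The 10 antiviral effectors that were higher had correlations of 0.787 to 0.967 with the score within the class (median 0.937). The 6 class II genes had 0.249 to 0.521 (median 0.424), and the 5 complement genes 0.022 to 0.520 (median 0.064). Among single genes, MX1 followed the score closely within the class (0.964), SLA-DRA less closely (0.521) and C4A hardly at all (0.056). Over all 78 higher genes the median was 0.529, with 21 above 0.8.

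Single arrays differed in which genes were high, as these genes, picked after their values were seen, show. Control replicate 8 had the highest score and the highest MX1 (11.6) and IRF9 (8.5), with SLA-DRA at 6.9, C4A at 7.4 and CCL2 at 5.7. Control replicate 9, also of S4, had MX1 at 10.5 and IRF9 at 7.5, yet the highest values of all arrays for SLA-DRA (8.9), UBD (9.2), C4A (9.0), CCL2 (7.9), CTSS (9.9) and B2M (13.7). The microglial markers P2RY12 (10.6), AIF1 (9.4), CD53 (9.2) and LAPTM5 (11.2) were also highest of all arrays in control replicate 9. The part of microglia in its values was not tested. Not every gene of a group ordered this pair the same way: the class I transporter TAP1 was higher in control replicate 8 (9.4 against 8.9), as MX1 was, and OAS1 was higher in control replicate 9 (7.0 against 6.0).

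A middle array carried part of the pattern. Control replicate 6, of S3, had a middle score but GBP1 at 9.2, IRF1 at 8.3 and TNFSF10 at 7.4, all above every interferon-low array. Its MX1 (9.5), IFIT3 (7.2), PLAC8 (6.2) and SLA-DRA (5.6) lay within the interferon-low range. In 1.2 g/L replicate 6, the interferon-high array of lowest score, GBP1 was at 8.6, IRF1 at 7.9 and SLA-DRA at 7.0. The interferon-high control replicate 1, of S1, ran the other way, with GBP1 at 6.5, IRF1 at 6.9 and SLA-DRA at 5.7 but MX1 at 10.3 and PLAC8 at 8.0.

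Of the 78 higher genes, 31 exceeded all interferon-low arrays in control replicate 1, 34 in 1.2 g/L replicate 2 and 39 in 1.2 g/L replicate 6. These are the 3 interferon-high arrays outside S4 and S5. In the 9 arrays of S4 and S5 this count was 44 to 75, with the lowest in 0.6 g/L replicate 12 and the highest in control replicate 9. The 78 genes were chosen for being higher in these same interferon-high arrays, most of them of S4 and S5. The counts are therefore a description only and do not compare set codes.

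**Figure D4:**
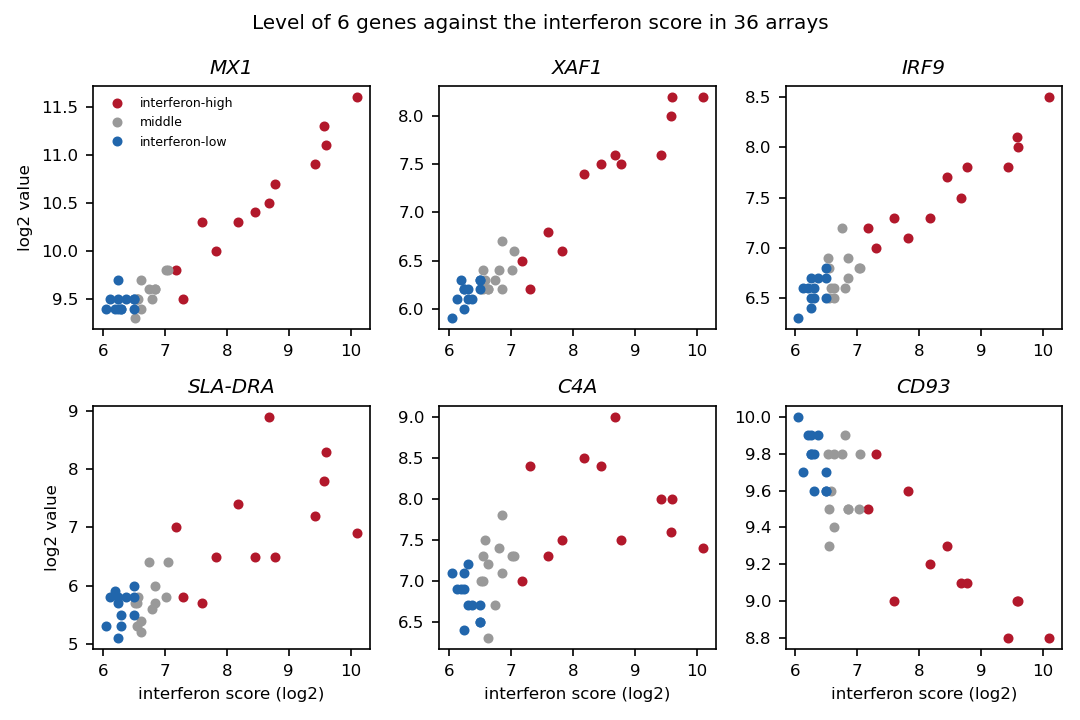
Log2 value of 6 genes (vertical axes) against the interferon score (horizontal axes) in 36 arrays, coloured by class. MX1, XAF1 and IRF9 climb along the score within the interferon-high arrays, SLA-DRA and C4A scatter there, and CD93 declines.

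The named genes outside the score with the most similar pattern over the 36 arrays, by Pearson correlation, were MX1 (0.971), XAF1 (0.969), PARP12 (0.964), IFIT3 (0.960) and IRF9 (0.959). PARP9, IFI44L, the loci LOC100519098 and LOC733579, and DDX58 followed with 0.950 to 0.925. Within the 12 interferon-low arrays, whose scores spanned 6.05 to 6.5, these correlations were weaker, for example 0.070 for MX1 and 0.216 for IFIT3. LOC100519098 did not overlap between the classes, at 5.8 to 7.8 against 5.0 to 5.7, and differed by 1.62 (SE 0.19, adjusted p = 1.68e-05). LOC733579 differed by 1.19 (SE 0.14, adjusted p = 1.68e-05). The locus LOC100524999 differed by 1.07 (SE 0.26, adjusted p = 0.037), a call that held in 10 of 24 fits that each left out 1 array.

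Taking all probe sets, 12 of 18000 (0.0667%) were higher in every interferon-high array than in every interferon-low array, and 0 were lower in every one. The named genes among these 12 were PLAC8, IFI44L, LOC100519098, IFIT3 and IRF9.

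Few named genes were lower, and their differences were small. CD93, a receptor of endothelial cells with a lectin-like domain, lay between 8.8 and 9.8 (median 9.1) in interferon-high and at 9.6 or above (median 9.8) in interferon-low arrays. In 10 of 12 interferon-high arrays it was below all interferon-low arrays. The CD93 difference was -0.59 (SE 0.09, adjusted p = 0.000426), and -0.58 with set code in the model (adjusted p = 9.84e-06). Of the 2 tested probe sets of CD93, 1 was called. ABCG2, an efflux transporter of the blood-brain barrier, differed by -0.32 (SE 0.08, adjusted p = 0.0377) and by -0.37 with set code in the model (adjusted p = 0.00723), but its call held in 10 of 24 fits that each left out 1 array. Its classes overlapped widely, at 9.3 to 10.1 against 9.7 to 10.3, and 1 of its 2 tested probe sets was called.

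The other 6 lower genes lost their call with set code in the model. SLC7A1, a cationic amino acid transporter, differed by -0.26 (SE 0.05, adjusted p = 0.00422) and CDK16, a cyclin-dependent kinase, by -0.23 (SE 0.05, adjusted p = 0.00652). The transcription factor DEAF1, the locus LOC100519643, the valyl-tRNA synthetase VARS and the chloride-proton exchanger CLCN3 differed by -0.25 to -0.18. With single arrays left out, SLC7A1 and CDK16 passed in all 24 fits, VARS in 23, DEAF1 in 15, CLCN3 in 7 and LOC100519643 in 5.

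Of 15 tested endothelial markers CD93 alone passed, and the median was 0.00. The adhesion molecule CDH5 differed by 0.18 (adjusted p = 0.343) and VWF, the clotting-factor carrier, by 0.23 (adjusted p = 0.427). Outside this list, and picked after their values were seen, NOSTRIN and CLIC2 were higher. NOSTRIN, which binds the endothelial nitric oxide synthase, differed by 0.60 (adjusted p = 0.00265, limma) and CLIC2 by 0.70 (adjusted p = 0.000627, limma). Of 10 markers of pericytes and the vessel wall none passed, among them PDGFRB, the growth-factor receptor of pericytes (-0.20, adjusted p = 0.233).

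Microglial markers were measured beside these genes. All 13 tested had a difference above 0, with a median of 0.21, and 2 passed, CTSS and the leukocyte membrane protein CD53 (0.47, SE 0.12, adjusted p = 0.0442). The call of CD53 held in 9 of 24 fits that each left out 1 array, and with set code in the model it was at 0.22 (adjusted p = 0.904), while CTSS passed there. The mean level of the list on the array was 7.23 to 8.21 in interferon-high and 7.08 to 7.64 in interferon-low arrays, so the classes overlapped. The ADP receptor P2RY12 differed by 0.17 (SE 0.12, adjusted p = 0.571) and the calcium-binding AIF1 (IBA1) by 0.18 (SE 0.10, adjusted p = 0.428). With set code in the model the list's median was 0.055, P2RY12 was at 0.02 and AIF1 at 0.01. With the list mean as a covariate in the comparison of the classes, 77 probe sets passed, 66 higher (0.367%) and 11 lower. Of the 78 higher genes 32 passed there too, and of the 8 lower genes 3. By list, 9 of 13 antiviral effectors were higher with that covariate, 3 of 11 class I genes, 2 of 4 immunoproteasome genes, 2 of 6 genes of the interferon-gamma type, 2 of 20 signalling genes and 2 of 12 complement genes. The microglia list shares CTSS with the class II list, C1QA and C1QC with the complement list and IRF8 with the signalling list. The covariate thus held part of these genes' own differences.

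Markers of white blood cells were mostly dim. Of 8 tested T and NK cell genes 1 passed, the adhesion receptor CD2 (0.38, SE 0.08, adjusted p = 0.00843), at 5.2 to 5.8 against 4.8 to 5.4. CD2 was at 0.29 with set code in the model (adjusted p = 0.541), where 0 of the 8 passed (limma). The T-cell receptor part CD3D differed by 0.10 (adjusted p = 0.5), and CD3E and CD8A were too dim to test. None of 3 tested macrophage and monocyte genes, 3 B and plasma cell genes, 3 neutrophil genes and 4 red-cell genes passed. The defining neutrophil markers S100A8, S100A9 and S100A12 had mean values of 4.82, 3.68 and 4.20, below the filter of 4.92. The part of these cells in the results was not tested.

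No neuronal marker passed. None of the 10 tested neuronal genes had a difference above 0, and their median was -0.16. ENO2, the neuronal enolase, differed by -0.19 (SE 0.08, adjusted p = 0.311) and UCHL1, a ubiquitin hydrolase of neurons, by -0.18 (SE 0.08, adjusted p = 0.354). With set code in the model the neuronal median was -0.054. The mean of the list lay between 11.83 and 12.09 in interferon-low arrays and reached both lower and higher, up to 12.12, in interferon-high arrays. In the interferon-high 1.2 g/L replicate 2, ENO2 (10.2), UCHL1 (12.4), STMN2 (11.9) and THY1 (10.1) were at their lowest of all arrays. That array also had the lowest correlation with the others.

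No astrocyte marker of 10 and no oligodendrocyte or myelin marker of 14 passed. GFAP, the filament of astrocytes, differed by 0.09 (95% interval -0.11 to 0.30, adjusted p = 0.725), and MBP, the main myelin protein, by 0.08 (-0.03 to 0.19, adjusted p = 0.505). Of 10 genes of reactive astrocytes 4 were higher, PSMB8, GBP2, SERPING1 and STAT3, which also belong to the interferon and complement lists. Of the 10, 1 passed with set code in the model, GBP2.

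Growth-factor genes linked to learning did not pass. BDNF, a neurotrophin of hippocampal synapses, lay between 8.1 and 9.5 (median 8.85) in interferon-high and between 8.6 and 9.5 (median 9.2) in interferon-low arrays. The BDNF difference was -0.32 (SE 0.13, adjusted p = 0.277). NTRK3, the receptor of neurotrophin 3, differed by -0.24 (SE 0.09, adjusted p = 0.233), and none of 7 genes of the list passed. Of 10 immediate early genes 1 passed, the transcription regulator IER2 (0.34, SE 0.08, adjusted p = 0.0214), which was at 0.20 with set code in the model (adjusted p = 0.587). None of 10 genes of iron handling and none of 13 of the unfolded-protein and heat-shock response passed. Lactoferrin's own transcript, LTF, was too dim to test, with medians of 4.5 and 4.55.

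**Figure D5:**
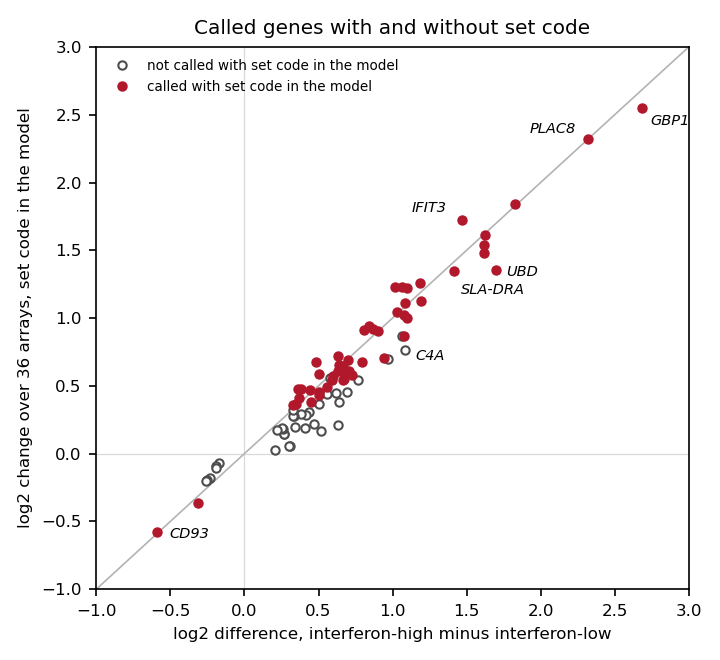
For the 86 called genes, the log2 difference between classes (horizontal axis) against the log2 change over 36 arrays with set code in the model (vertical axis), the grey line marking equality. Filled points (49 higher and 2 lower genes) also passed with set code in the model; C4A lies below the line and did not.

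With set code in the model over 36 arrays, GBP1 was at 2.55 (adjusted p = 1.92e-07), PLAC8 at 2.32 (adjusted p = 4.08e-10), IFIT3 at 1.72, MX1 at 1.23 and SLA-DRA at 1.35. The comparison of the 24 classed arrays with set code as a block gave smaller values, and none of these genes passed there. GBP1 was then at 1.69, PLAC8 at 1.89, IFIT3 at 0.62, MX1 at 0.39 and SLA-DRA at 0.71. Within S4 and S5 alone, with set code as a block, 76 probe sets passed on the score, 73 of them higher. Within S1 to S3 alone 12 did, 10 of them higher, over scores that spanned 6.05 to 7.6. Whether slopes on the score differed between S4 and S5 and the other set codes was tested for every probe set, and 0 passed (limma, smallest adjusted p = 0.66, 1016 at an unadjusted p under 0.05). For added lactoferrin against control 0 slopes passed either (limma, smallest adjusted p = 1, 301 at an unadjusted p under 0.05).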

How the data were processed

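The authors deposited log2 expression values with 1 decimal. Per the submitters' processing notes these came from Affymetrix Expression Console 1.1, which ran RMA: background correction, normalisation between arrays and 1 value per probe set. No raw intensities were used. Genes were named by GEO's platform annotation (2016): of 23999 probe sets without controls, 10069 had 1 symbol, 198 several and 13732 none, and 9961 matched RefSeq by gene ID. The 6 probe sets of the score genes and those with a mean below the 25th percentile (4.92) were left out, leaving 18000. Classes were compared with limma 3.58.1 in R 4.3.3 (lmFit, eBayes, two-sided, no covariate). Permutation tests used 100000 resamples and were two-sided. The 37 gene lists, 609 symbols in all, were described on 1 probe set per gene, that of highest mean, and matched by current symbol. Named genes were up to 20 largest differences in each direction that passed, up to 4 members of smallest p per list, 10 of highest correlation with the score, and a fixed list of interferon and brain genes. IFIH1, DHX58, CXCL10 and PSMB9 were not matched. Members and lists were chosen with earlier results of these data known. The model was tested on simulated data.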

Additional observations from a re-analysis of the deposited data

Results flagged for a closer look

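Of 149 groups of arrays, 17 held an array far from the others. The groups were those of each set code, for the 28 genes with the largest called differences and the score, and those of each class within a feeding group, for the score (Dixon's criterion, which flags about 1 in 20 groups by chance). The score itself held none. In S2, 1.2 g/L replicate 6, its only interferon-high array, stood highest for GBP1 (8.6), UBD (5.7), TNFSF10 (7.3), SLA-DRA (7.0) and IRF1 (7.9). In S3, control replicate 6 stood highest for TNFSF10 (7.4) and IRF1 (8.3), and control replicate 5 for MX1 (9.8). In S1, control replicate 1 stood highest for ISG12(A) (9.8), XAF1 (6.8) and MX1 (10.3), and 1.2 g/L replicate 1 lowest for B2M (11.9) and highest for CLCN3 (10.3). C4A was highest in control replicate 4 of S2 (7.8) and in 1.2 g/L replicate 12 of S5 (8.4). EIF2AK2 was lowest in 0.6 g/L replicate 1 of S2 (7.9), and CLCN3 highest in 0.6 g/L replicate 9 of S4 (10.4).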

How the results depend on the processing

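The count of 192 probe sets stayed within 1.5 times under the other filters, scalings, class sizes and scores, apart from the settings given here. It was 0 with set code as a block, with set code and feeding group together, with the replicate number as a block and with the replicate block and feeding group. Replicate numbers do not pair the samples: over 36 same-numbered pairs the deviations from group means correlated at -0.448 to 0.30, and 2 of 36 arrays matched best with their own number. The count was 105 with feeding group as a covariate, 122 with the filter at the 50th percentile, 107 with 1 probe set per gene, 90 on arrays with the Dap spike-in, 77 with the microglia list as a covariate, 363 with array weights and 328 with a score without ISG15. With the score centred within feeding groups it was 78, and within set codes 18, or 75 with set code also as a block. Within feeding groups it was 0 in controls, 56 at 0.6 g/L and 0 at 1.2 g/L. Alternatives chosen after seeing the data, with the score as a covariate, gave 112 with set code as a block, 90 with feeding group added, 0 in S1, S2 and S3 each, 61 in S4, 4 in S5, 76 in S4 and S5 together and 12 in S1 to S3 together. The cause of these changes was not tested, but several used fewer arrays. Leaving out single arrays gave 154 to 402, and 402 (290 higher, 112 lower) came without control replicate 2, the interferon-low array of S1. The score at 0.6 g/L minus control was -0.73 SD units with each gene scaled to its SD (adjusted p = 0.049, permutation test). With arrays left out it was -1.03 to -0.61 log2 units. Set code held 45.8% to 55.5% of the variance of the score with arrays left out. Every list median moved by less than the spread between arrays when all probe sets of a gene were averaged.

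Of the values of named genes that had passed, 19 turned sign under another setting. In S1 alone, over 4 arrays, these were UBD (-1.04), TNFSF10 (-0.032), SLA-DRA (-0.41), TAP1 (-0.051), TAPBP (-0.42), CTSS (-0.54), GBP2 (-0.10) and IER2 (-0.16). In S2 they were ABCG2 (0.21) and CFB (-0.11), and in S5 SLC7A1 (0.027). In S3 they were ABCG2 (0.19), DEAF1 (0.49), LOC100519643 (0.053), VARS (0.14), CLCN3 (0.30), IFI35 (-0.020) and CCL4 (-0.20). IER2 was at -0.008 with set code and feeding group together. None of these passed its test. The comparison within set codes and the search for promoter motifs were not run, since no set code held 2 arrays of each class and no sequences were used here. Values rounded to 1 decimal limit small differences, and dim genes stayed out of the main comparison. Without the filter on dim probe sets, 199 of 23993 passed.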

Other observations

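The 86 called genes and the 4 score genes included 15 pairs of direct neighbours in the RefSeq order of protein-coding genes (Sscrofa11.1), in which 27 of the 86 took part. No such count is given here for genes that were not called. The numbers are therefore a description and do not show that called genes lie together more often than others. Among them were the related genes MX1 and MX2, GBP1 and GBP2, IFIT2 and IFIT3, SP110 and SP140, C1R and C1S, and the class II genes SLA-DRB1, SLA-DQA1 and SLA-DQB1. PSMB8 and TAP1, which act in class I display, and IRF9 and PSME2 were neighbours too. Probes for related neighbours can share sequence, and this was not tested.

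Some called genes outside the lists were singled out after their values were seen. The immunoglobulin receptors FCGR1A (0.56, SE 0.09, adjusted p = 0.000282) and FCGR3A (0.63, SE 0.16, adjusted p = 0.0434) were higher in interferon-high arrays. With set code in the model FCGR1A was at 0.49 (adjusted p = 0.000564) and FCGR3A at 0.21 (adjusted p = 0.928). NOSTRIN, a partner of the endothelial nitric oxide synthase, was higher by 0.60 (SE 0.11, adjusted p = 0.00265), and at 0.57 with set code in the model (adjusted p = 0.00565). TMEM38B, a potassium channel of the endoplasmic reticulum, was higher by 0.52 (adjusted p = 0.0123) but at 0.17 with set code in the model (adjusted p = 0.944), and its correlation with the score within the interferon-high arrays was -0.702. The clock factor ARNTL was higher by 0.27 (adjusted p = 0.0232) and at 0.15 with set code in the model (adjusted p = 0.888).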
